A study of Mus musculus with 7 samples.

Results

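Fkbp5 and 6 genes that act with the corticosteroid receptors were followed through 7 RNA-seq libraries of mouse amygdala neurons. The set holds the glucocorticoid receptor gene Nr3c1, the mineralocorticoid receptor gene Nr3c2, the immunophilin genes Fkbp5 and Fkbp4, the co-chaperone genes Ptges3 and Stub1, and Hsd11b1, whose enzyme regenerates active corticosteroid. All 7 genes were found by symbol among the 35976 symbols counted. Fkbp5 was chosen by its p, the smallest between the groups in these same libraries. Its difference between the groups is therefore described and carries no test. The other 6 genes were named for their roles.

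All animals were C57BL/6J males. The guide RNA reached the amygdala in an adeno-associated virus (AAV), Cas9 was driven by the neuronal Hsyn promoter, and the virus had more than 2 weeks to express. The control guide was sgRosa (4 libraries), and sgNr2f2 (3 libraries) targets Nr2f2, the gene of the nuclear receptor COUP-TFII. Mice of both groups went through 7 days of tube restraint, then fear conditioning (1 day) and its extinction (3 days), so the comparison is among stressed mice. Neurons were then enriched magnetically from papain-digested tissue and 5 ng of RNA was used per library. Whether a library came from 1 mouse or from several is not given in the labels, so the spread between libraries may be partly technical. Values of single libraries are listed in the order of their replicate numbers. Levels are given as CPM, the usual count unit relative to library size, here with TMM-adjusted library totals.

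Corticosterone, the main glucocorticoid of the mouse, reaches the brain after stress and binds both receptors, the mineralocorticoid receptor with the higher affinity. The unbound glucocorticoid receptor sits in the cytoplasm in a complex with Hsp90, the small acidic protein p23 (encoded by Ptges3) and an immunophilin. FKBP51, the product of Fkbp5, lowers hormone binding and slows entry into the nucleus. FKBP52, the product of Fkbp4, takes its place and links the receptor to dynein. Fkbp5 is itself induced by the activated receptor, which closes a short negative feedback loop. CHIP, the ubiquitin ligase encoded by Stub1, marks Hsp90 and Hsp70 clients, the receptor among them, for degradation.

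The libraries held 6266897 to 20928677 counts each, and sgRosa replicate 4 stood apart. It correlated less with the rest (mean r of 0.72) than any other library did (0.88 to 0.90). It was the highest library for 32.7% and the lowest for 35.2% of the 14412 genes tested. Among the 7 genes of the set it was the highest library for 3 and the lowest for 2, so the main results are given with and without it. The 10 oligodendrocyte markers took 2.69 to 29.4% of counts in sgRosa and 17.9 to 32.2% in sgNr2f2. The 10 neuronal markers were detected in every library but took only 0.0302 to 0.122% and 0.0336 to 0.0406%, although the label is neuron. In such mixed RNA, fewer cells of a type and less RNA per cell cannot be told apart. Nr2f2 itself, the targeted gene, lay at 19.8, 16.5, 11.3 and 13.1 CPM in the 4 control libraries and at 11.9, 12 and 11.6 CPM in the 3 sgNr2f2 libraries. Its log2 fold change was -0.36 (SE 0.37, edgeR adjusted p = 0.905). Whether the gene was edited was not tested.

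The stretch before the RefSeq start of Fkbp5 is shown because this is the gene whose level differed most within the set. Fkbp5 lies on chromosome 17 (28398753 to 28486149, minus strand, GRCm38.p6, the assembly of mm10). The 250 bases before its start run 5′ to 3′ on the minus strand, chr17:28486150-28486399, with a CACGTG E-box in capitals.
Fkbp5: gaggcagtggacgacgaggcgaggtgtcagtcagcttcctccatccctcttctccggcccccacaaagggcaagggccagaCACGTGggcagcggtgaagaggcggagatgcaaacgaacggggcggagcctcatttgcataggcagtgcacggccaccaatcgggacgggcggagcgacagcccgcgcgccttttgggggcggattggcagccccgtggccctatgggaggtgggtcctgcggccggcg
GENCODE M21 also holds Fkbp5 transcripts that start farther upstream, and in those this stretch is intronic. It was 68.0% G or C, against a median of 52.4% over 32851 windows of the same kind. It held no match on either strand to the glucocorticoid half-site AGAACA or the nuclear receptor half-site AGGTCA. It likewise held no full glucocorticoid response element (AGAACA and its inverse TGTTCT with 3 bases between them), no direct repeat (AGGTCA, 1 base, AGGTCA) and no heat shock element (GAA, TTC and GAA, each 2 bases apart). The half-sites are parts of the first 2 of these elements and occurred in 16.1 and 14% of all windows. The longer elements occurred in 0.00913% (response element), 0.466% (heat shock element) and 0.0335% (direct repeat). The E-box, 169 bases before the start, was added to the search after the sequence had been seen, and 6.02% of all windows hold one. Windows of 6 of the 7 genes were searched, and that of Nr3c1 was left out. None of the other 5 windows held any of the first 5 motifs, and 1 of them, that of Stub1, held the E-box.

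Levels of different genes were compared per kilobase of exon (RPKM, from raw totals and the union of GENCODE M21 exons). Fkbp4 ranked second and Nr3c1 the third of the 7 genes in every library, at 39.4 ± 15.9 and 18.2 ± 6.37 RPKM in sgRosa (SD, n = 4) and 40.5 ± 10.4 and 13.4 ± 3.805 RPKM in sgNr2f2 (SD, n = 3). Ptges3 ranked first in 6 libraries and had rank 4 in sgRosa replicate 4, with a median of 78.3 RPKM over the 7. Stub1 had a median of 10.8 RPKM and had rank 4 or 5 outside that library, where it came first at 88.7 RPKM. Fkbp5 and Nr3c2 had close means in sgRosa, 1.15 ± 0.65 and 1.13 ± 0.80 RPKM, but were not close in each library. By replicate, Fkbp5 lay at 0.61, 1.90, 1.49 and 0.59 RPKM and Nr3c2 at 2.16, 1.15, 1.00 and 0.20 RPKM. In sgNr2f2 Fkbp5 averaged 9.92 ± 6.41 RPKM, Stub1 10.1 ± 2.30 RPKM and Nr3c2 1.05 ± 0.71 RPKM. Fkbp5 lay below Stub1 in sgNr2f2 replicates 1 and 3 and above it in replicate 2. Hsd11b1 had the lowest median, 0.38 RPKM.

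**Figure D1:**
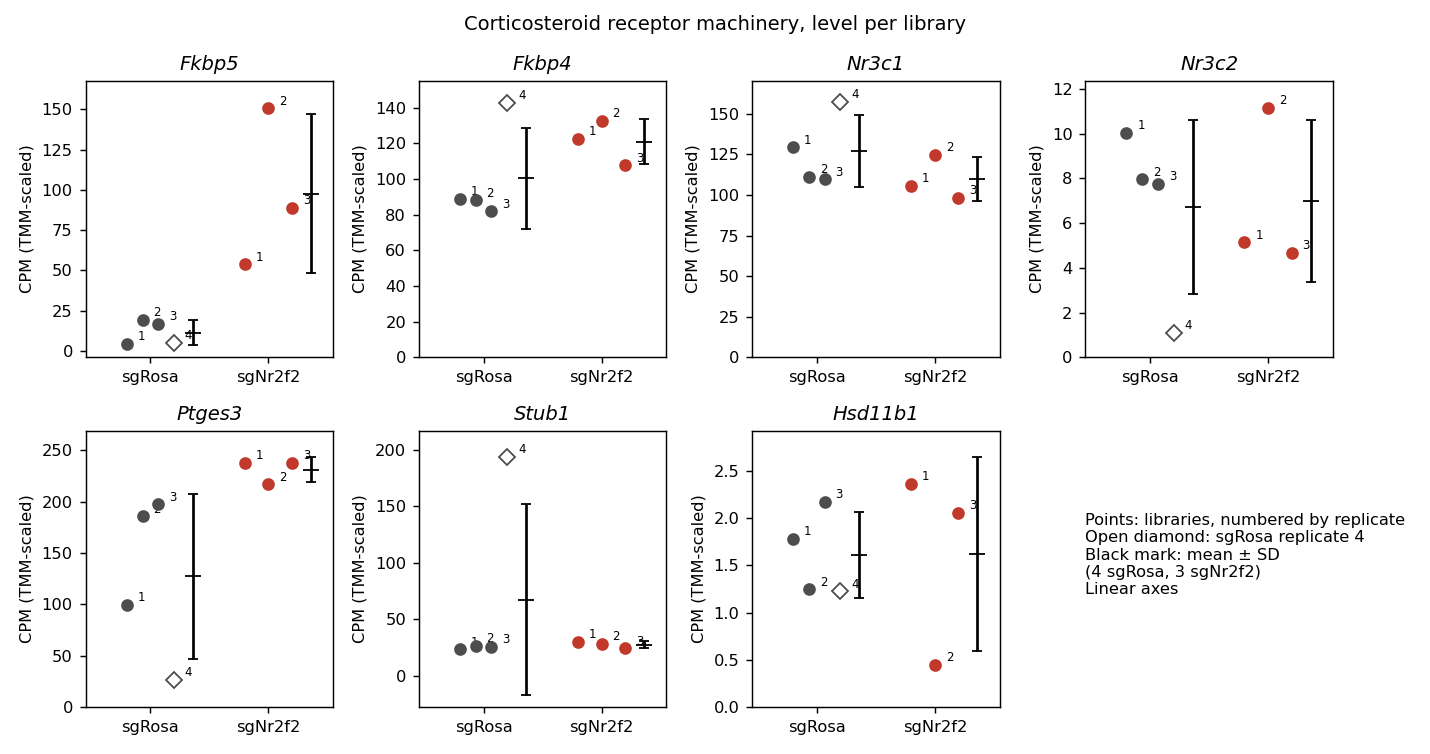
CPM of each gene (vertical axis, linear, TMM-scaled) in 4 sgRosa and 3 sgNr2f2 libraries, 1 point per library numbered by replicate, with mean ± SD in black and sgRosa replicate 4 as an open diamond. The sgNr2f2 points of Fkbp5 lie between 53.7 and 150.7 CPM, all above the sgRosa points, and the diamond lies far from the other sgRosa points for Stub1, Fkbp4 and Nr3c2.

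Each sgNr2f2 library held more Fkbp5 than any control, and the level varied widely inside each group. It had 89, 356, 247 and 35 counts in the controls, or 4.17, 19.3, 16.8 and 4.77 CPM. With sgNr2f2 it had 886, 2688 and 1465 counts, or 53.7, 150.7 and 88.7 CPM. The sgRosa libraries thus fell into a low pair, replicates 1 and 4, and a higher pair, replicates 2 and 3, and the lowest sgNr2f2 library stood above both pairs. The group levels were 11.3 ± 7.90 CPM (SD, n = 4) and 97.7 ± 49.1 CPM (SD, n = 3). The log2 fold change was 3.11 (SE 0.65), from 2.66 to 3.53 over the fits that left out 1 library each and 2.87 without sgRosa replicate 4.

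The makeup of the libraries moved with Fkbp5 in part. The number of genes with a count was lower in every sgNr2f2 library (16364 to 17572) than in any control (18644 to 19916), the single measure of 14 that separated the groups (exact permutation p = 0.0286, adjusted p = 0.4), and its part in the Fkbp5 difference was not tested. The sgRosa libraries low in Fkbp5, replicates 1 and 4, were also the ones lowest in oligodendrocyte markers, at 13.6 and 2.69% of counts against 29.4 and 29.0% in replicates 2 and 3. In sgNr2f2 the order was the other way, since replicate 2 had the highest Fkbp5 and the lowest oligodendrocyte share, 17.9% against 29.8 and 32.2%. With the log2 oligodendrocyte share as a covariate the log2 fold change of Fkbp5 was 2.95. sgRosa replicate 4 lay far from the other libraries on this covariate, at 2.69% against 13.6 to 32.2%. The fit thus largely set that library apart, so adjusting for makeup cannot be told from leaving it out (2.87). Early response genes that tissue dissociation can induce took 1.58% of counts in the first sgRosa library, while the other 6 lay at 0.126 to 0.574%, and this measure overlapped between the groups. The gene Gm22146, which lies inside Fkbp5, had 3 to 150 counts per library, and its own level overlapped between the groups.

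Fkbp4 (chromosome 6, 128430103 to 128438656), the paralog whose product promotes receptor transport, did not pass the test. It lay at 88.7, 88.0, 81.8 and 142.5 CPM in the 4 control libraries and at 122.4, 132.4 and 107.6 CPM in the 3 sgNr2f2 libraries. The groups overlapped through sgRosa replicate 4 alone, the highest of all libraries. Its log2 fold change was 0.27 (SE 0.41, 95% interval -0.64 to 1.17, edgeR adjusted p = 0.938). Without that library the sgRosa level was 86.2 ± 3.83 CPM (SD, n = 3) against 120.8 ± 12.5 CPM in sgNr2f2, every sgNr2f2 library was higher, and the log2 fold change was 0.49 (SE 0.24, 95% interval -0.062 to 1.04, edgeR adjusted p = 0.501).

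The count ratio of Fkbp5 to Fkbp4 compares the immunophilins inside each library and does not depend on library scaling. It was 0.047, 0.22, 0.21 and 0.033 in the 4 control libraries and 0.44, 1.14 and 0.82 in the 3 sgNr2f2 libraries. The mean log2 ratio was -3.44 ± 1.40 in sgRosa (SD, n = 4) and -0.43 ± 0.70 in sgNr2f2 (SD, n = 3), a difference of 3.01, and 2.53 without sgRosa replicate 4. Because Fkbp5 was chosen for its difference, this ratio is a description with no test.

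**Figure D2:**
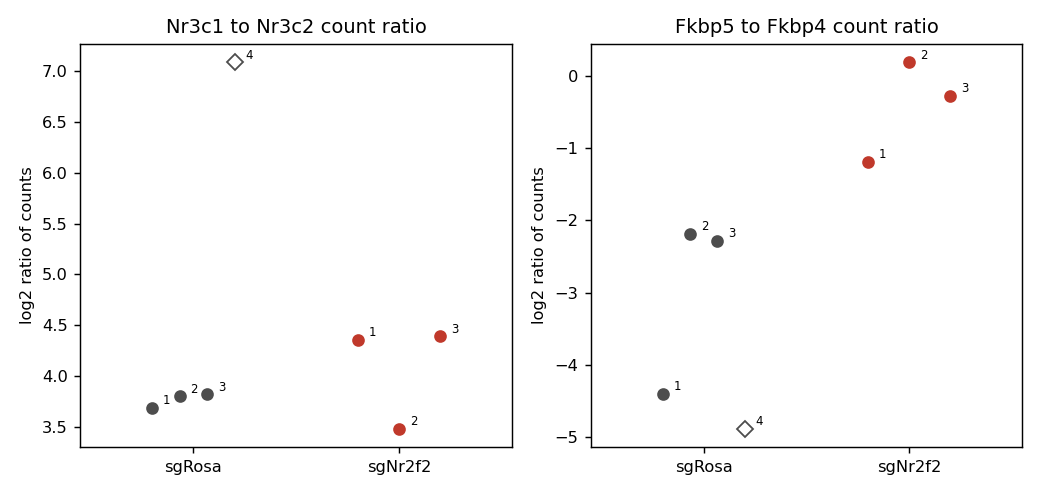
Log2 ratio of raw counts (vertical axis, 0.5 added to each count) in each library of sgRosa and sgNr2f2, 1 point per library numbered by replicate, for Nr3c1 to Nr3c2 (left) and Fkbp5 to Fkbp4 (right). The Nr3c1 to Nr3c2 ratio of sgRosa replicate 4 (open diamond) is 7.09 against 3.48 to 4.39 in the other 6 libraries, and the Fkbp5 to Fkbp4 ratio is higher in each sgNr2f2 library.

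Ptges3 (chromosome 10, 128058982 to 128077254) was the other gene of the set, besides Fkbp5, whose groups did not overlap, and it did not pass the test. Its product p23 binds Hsp90 in its closed state and stabilizes the hormone-binding form of the receptor. It lay at 99.2, 185.9, 197.5 and 26.6 CPM in the 4 control libraries and at 237.8, 217.1 and 238.1 CPM in the 3 sgNr2f2 libraries. The sgNr2f2 libraries were close together, while the sgRosa libraries ranged widely, with replicates 1 and 4 low as for Fkbp5. The log2 fold change was 0.86 (SE 0.62, 95% interval -0.51 to 2.23, edgeR adjusted p = 0.871) and 0.52 (SE 0.33, edgeR adjusted p = 0.616) without sgRosa replicate 4. With the oligodendrocyte share as a covariate, a fit that again largely set sgRosa replicate 4 apart, it was 0.48. Over all genes tested, 4.41% lay higher in sgNr2f2 with no overlap between the groups, so the count of 2 such genes in a set built around Fkbp5 is given as a description.

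Stub1 (chromosome 17, 25830634 to 25832919) stood out in a single library. It lay at 23.6, 26.8, 25.6 and 194.1 CPM in the 4 control libraries and at 30.5, 28.4 and 24.5 CPM in the 3 sgNr2f2 libraries. Apart from sgRosa replicate 4 the libraries differed by at most 1.29-fold. The log2 fold change was -1.28 (SE 0.78, edgeR adjusted p = 0.868) and 0.13 (SE 0.22, 95% interval -0.37 to 0.63, edgeR adjusted p = 0.881) without that library. The gene Jmjd8 overlaps Stub1, and the strand setting of the counting is not given in the sources used here. Jmjd8 was also highest in that library, at 25.6 CPM against 2.97 to 8.95 CPM in the others. Whether the genes exchanged reads was not tested.

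The receptor genes did not pass the test in either direction. Nr3c1 lay at 129.3, 111.3, 109.8 and 157.5 CPM in the 4 control libraries and at 105.8, 124.8 and 98.4 CPM in the 3 sgNr2f2 libraries. Its highest library was 1.60 times the lowest, the smallest such ratio in the set. Without sgRosa replicate 4 the ratio was 1.31, and that of Stub1 was 1.29. The log2 fold change was -0.21 (SE 0.40, 95% interval -1.09 to 0.67, edgeR adjusted p = 0.951), and -0.092 (SE 0.25, 95% interval -0.66 to 0.48, edgeR adjusted p = 0.937) without sgRosa replicate 4. The 3 libraries highest in Nr3c1, sgRosa replicates 4 and 1 and sgNr2f2 replicate 2, were also the 3 highest in endothelial markers, at 0.615, 0.737 and 0.644% of counts against 0.218 to 0.265% in the others. The endothelial markers did not move together in sgRosa replicate 4. Cldn5, Ly6c1 and Esam were higher there than in any other library, at 895.9, 1756.5 and 1297.6 CPM. Pecam1, Cdh5, Tek, Slco1a4 and Abcb1a were lower there than in any other, at 42.9, 18.3, 51.6, 219.1 and 128.5 CPM. Flt1 and Kdr lay between. The part of endothelial RNA in the Nr3c1 level was not tested.

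Nr3c2 (chromosome 8, 76898083 to 77245012), the gene of the high-affinity receptor, was counted far less often, with 8 to 214 counts per library. It lay at 10.03, 7.96, 7.75 and 1.09 CPM in the 4 control libraries and at 5.15, 11.2 and 4.66 CPM in the 3 sgNr2f2 libraries. The groups overlapped, and sgNr2f2 replicate 2 was the highest of all. The log2 fold change was 0.048 (SE 0.66, 95% interval -1.42 to 1.52, edgeR adjusted p = 0.996). It was -0.30 (SE 0.40, edgeR adjusted p = 0.842) without sgRosa replicate 4 and -0.46 without sgNr2f2 replicate 2, so its direction rested on single libraries.

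The balance of both receptors, taken as the ratio of Nr3c1 to Nr3c2 counts, was 12.9, 13.98, 14.2 and 144.5 in the 4 control libraries and 20.6, 11.2 and 21.1 in the 3 sgNr2f2 libraries. The value of sgRosa replicate 4 rests on 8 Nr3c2 counts. The mean log2 ratio was 4.60 ± 1.66 in sgRosa (SD, n = 4) and 4.07 ± 0.51 in sgNr2f2 (SD, n = 3), and the exact two-sided permutation test gave p = 0.914 over 35 splits, where the smallest possible p is 0.0286. Without sgRosa replicate 4 the difference had the other sign, 0.31, with sgNr2f2 replicates 1 and 3 above and replicate 2 below the 3 sgRosa libraries. That comparison of 3 against 3 libraries gave an exact permutation p of 0.40 and cannot go below 0.10.

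**Figure D3:**
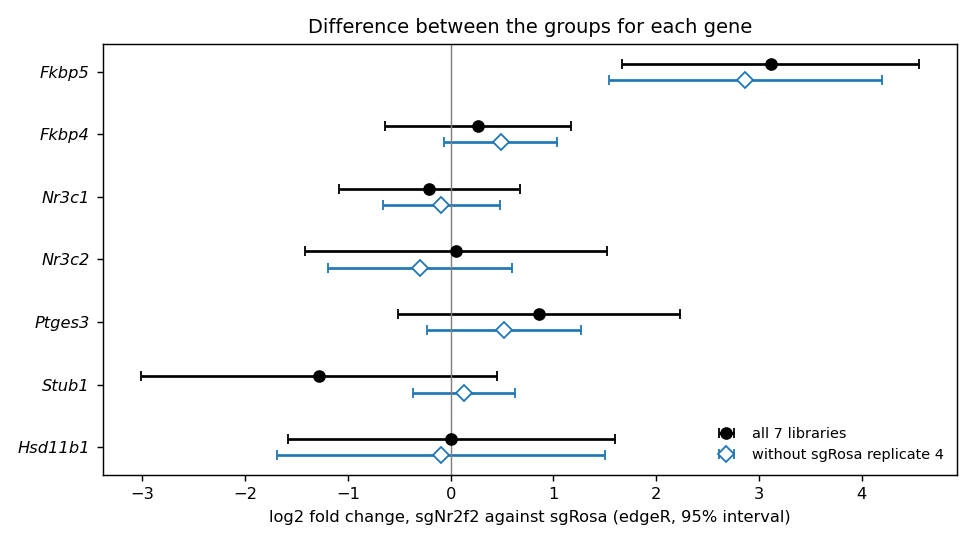
Log2 fold change of sgNr2f2 against sgRosa (horizontal axis, edgeR) with its 95% interval for each gene, from all 7 libraries (black circles) and without sgRosa replicate 4 (blue open diamonds). The intervals of the other 6 genes include 0 in both fits, that of Fkbp5 is a description of the gene chosen on these values, and Stub1 moves from -1.28 to 0.13 when that library is left out.

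Hsd11b1 (chromosome 1, 193221640 to 193264045), whose enzyme 11β-HSD1 turns inert 11-dehydrocorticosterone back into corticosterone, was near the lower end of what these libraries can measure. It had 38, 23, 32 and 9 counts in the 4 control libraries and 39, 8 and 34 in the 3 sgNr2f2 libraries, or 1.23 to 2.18 and 0.45 to 2.36 CPM. sgNr2f2 replicates 1 and 2 were the highest and the lowest of all 7 libraries. The log2 fold change was 0.0066 (SE 0.72, 95% interval -1.58 to 1.59, edgeR adjusted p = 0.999), and -0.096 without sgRosa replicate 4.

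Of the 7 genes, 0 passed edgeR's test over all genes. The same held for 0.0% of the 14412 genes tested in either direction, and with no adjustment 2.18% lay higher and 2.82% lower at p under 0.05. DESeq2 called 0.0139% of genes higher and 0.0347% lower. None of the 6 members besides Fkbp5 was among them, and it gave no p for Stub1. Without sgRosa replicate 4, edgeR again called 0.0% either way (with no adjustment, 6.41% higher and 4.88% lower), and DESeq2 called 1.82% higher and 0.823% lower. Fkbp5, Fkbp4 and Ptges3 then lay higher with no overlap, beside 8.99% of all genes that did so and 9.01% that lay lower.

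The other genes of the receptor pathway were counted in 7 lists, none with a member past edgeR's adjusted threshold. Of 15 chaperones measured, 8 were on the higher and 7 on the lower side in sgNr2f2, with a median log2 fold change of 0.018 against -0.11 over all genes tested. The lowest p-values belonged to Hspbp1, a nucleotide exchange factor of Hsp70 (35.9 ± 38.5 CPM in sgRosa and 17.9 ± 3.41 CPM in sgNr2f2), to Hspa4, an Hsp110-type chaperone (47.3 ± 15.9 and 68.8 ± 9.996 CPM), and to Hsp90b1, the Hsp90 of the endoplasmic reticulum (613.0 ± 486.7 and 359.7 ± 7.05 CPM). sgRosa replicate 4 was the highest library for Hspbp1 and Hsp90b1 and the lowest for Hspa4. Leaving it out moved the log2 fold change of Hspbp1 from -0.999 to 0.10, that of Hsp90b1 from -0.77 to -0.042 and that of Hspa4 from 0.54 to 0.31. Without it 12 of 15 chaperones were on the higher side, and the median was 0.26 against -0.033 over all genes. With all libraries the side of the median depended on the scaling, at -0.045 with DESeq2 size factors, -0.051 with upper-quartile factors and -0.23 with library size alone.

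Of 9 other partners of Hsp90 that carry TPR repeats, 4 lay higher and 5 lower, with a median log2 fold change of -0.028. Ppp5c, a protein phosphatase found in receptor complexes, averaged 25.9 ± 10.8 CPM with sgRosa against 44.2 ± 6.24 CPM with sgNr2f2, with no overlap (log2 fold change 0.77, SE 0.46, edgeR adjusted p = 0.868). Its log2 fold change was 0.50 without sgRosa replicate 4. Sugt1 had a log2 fold change of -0.65, and -0.11 without sgRosa replicate 4. That of Unc45a was 0.52, and 0.14 to 0.76 over the fits that left out 1 library each. Without that library 6 of 9 were on the higher side, with a median of 0.14.

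The FKBP family beyond Fkbp5 and Fkbp4 leaned lower, with 9 of 12 measured members on the lower side and a median log2 fold change of -0.39. Fkbp3, whose product is a nuclear immunophilin, averaged 87.8 ± 67.3 CPM with sgRosa against 33.9 ± 5.55 CPM with sgNr2f2. It was lower in each sgNr2f2 library, with a log2 fold change of -1.37 with all libraries and -0.68 when sgRosa replicate 4 was left out. Fkbp7 and Fkbp11, which encode immunophilins of the endoplasmic reticulum, had log2 fold changes of -1.01 and -1.38, or -0.70 and -0.86 without that library. Fkbp7 likewise did not overlap, beside 3.9% of all genes that were lower with no overlap. Fkbp1a, named after its values were seen, was higher with no overlap, as were 4.41% of all genes. The log2 fold change of Fkbp1a was 0.68, and 0.37 without sgRosa replicate 4. Fkbp6 was not tested, with 11 counts in all. Without sgRosa replicate 4 the split was 5 higher and 7 lower, with a median of -0.18. Fkbp8 and Fkbpl, named outside the rule for naming genes, belong to this list and to that of the TPR partners. None of these genes passed in either fit. Fkbp5 was the only measured member with a log2 fold change above 1, but it was chosen on these values. Fkbp3, Fkbp7 and Fkbp11 lay below -1, as did Fkbp1b (-1.14, and -0.19 without sgRosa replicate 4), named after its values were seen.

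Of 15 receptor coregulators, 10 were on the higher side (median log2 fold change 0.14, and -0.086 with library size alone). The split was 8 to 7 without sgRosa replicate 4, with a median of 0.24. Hdac2, a histone deacetylase, averaged 18.3 ± 9.93 CPM with sgRosa against 30.8 ± 1.13 CPM with sgNr2f2, with no overlap. Ncoa3, a steroid receptor coactivator, lay at 13.1 ± 4.60 and 25.4 ± 12.6 CPM. DESeq2's fit without sgRosa replicate 4 called 2 coregulators higher, beside 1.82% of all genes. Among them was Smarca4, an ATPase of chromatin remodelling, named after its values were seen. Smarca4 had a log2 fold change of -0.44 with all libraries and 0.81 without that one.

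Among genes of other steroid receptors, Pgr (progesterone) and Esr1 (estrogen) lay on the lower side, with log2 fold changes of -0.89 and -1.05, and with -0.71 and -1.39 without sgRosa replicate 4. Their groups overlapped, and the value of Esr1 ran from -5.65 to -0.45 over the fits that left out 1 library. Esr2 had 6 counts in all and was not tested. Among genes of corticosteroid supply, 6 of 10 were measured and 4 of them were on the higher side (median 0.11, -0.094 with library size alone and -0.14 without sgRosa replicate 4). Srd5a1, a steroid 5α-reductase, averaged 13.6 ± 4.60 CPM with sgRosa against 19.6 ± 10.8 CPM with sgNr2f2. Por, the electron donor of P450 enzymes, lay at 41.9 ± 14.4 and 54.2 ± 12.04 CPM. H6pd, whose enzyme supplies the NADPH that 11β-HSD1 uses, lay at 2.34 ± 0.64 and 1.496 ± 0.99 CPM. Hsd11b2, the gene of the inactivating enzyme, had 12 counts in all, and Serpina6 and Cyp11b1 had 0.

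**Figure D4:**
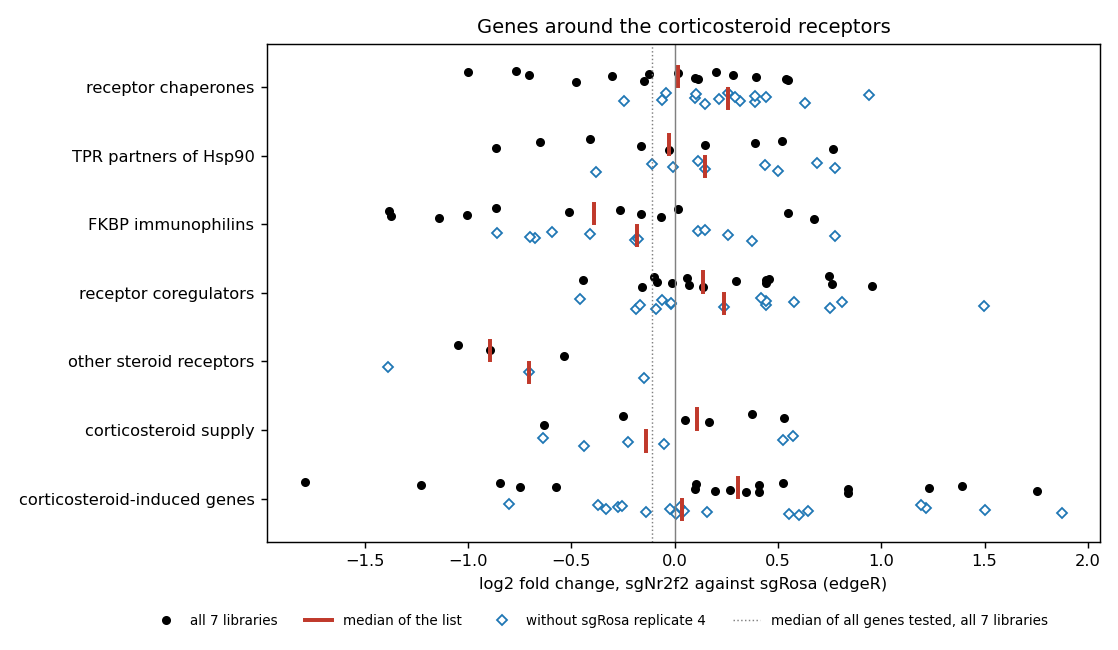
Log2 fold change of sgNr2f2 against sgRosa (horizontal axis, edgeR) for each measured gene of 7 lists, from all 7 libraries (black) and without sgRosa replicate 4 (blue open diamonds), with the median of each list in red and the median of all genes tested, -0.11, as a dotted line. The median of the corticosteroid-induced genes is 0.31 with all libraries and 0.034 without that library, and that of the chaperones moves from 0.018 to 0.26.

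Of 18 genes known to be induced by corticosteroids, Fkbp5 not counted, 13 were on the higher side with a median log2 fold change of 0.31. The split was 10 to 8 with library size alone (median 0.073) and with the oligodendrocyte covariate (median 0.046), and 9 to 9 with the replicate block (median 0.0040). The block sets sgRosa replicate 4 apart and the covariate largely does so. Leaving that library out gave a median of 0.034. The list was put together with earlier results of these libraries known, so its direction is no separate evidence. Zbtb16, a zinc finger transcription factor, lay at 27.2, 35.4, 74.0 and 61.3 CPM in the 4 control libraries and at 105.7, 215.8 and 178.6 CPM in the 3 sgNr2f2 libraries. Cdkn1a, a cyclin-dependent kinase inhibitor, lay at 200.3, 161.0, 230.8 and 360.0 CPM and at 319.7, 824.1 and 533.2 CPM in the same order. As for Fkbp5, sgNr2f2 replicate 2 was the highest and replicate 1 the lowest of its group for both genes, but the low sgRosa pair of Fkbp5 was not the low pair here. Their log2 fold changes were 1.75 (SE 0.49) for Zbtb16, with no overlap, and 1.23 (SE 0.51) for Cdkn1a, both at an edgeR adjusted p of 0.868. Bcl6, a transcriptional repressor, went the other way, at 5.20, 4.66, 3.74 and 22.8 CPM and at 3.63, 2.47 and 1.69 CPM. Its log2 fold change was -1.79 and -0.80 without sgRosa replicate 4.

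Other classical targets differed less than Fkbp5, but Fkbp5 was chosen on these values, so this order is no separate evidence. Among the larger values of the list, picked after they were seen, Plin4 stood at 1.39, Sult1a1 at -1.23 and Arl4d at -0.85 (log2 fold change). Leaving out sgRosa replicate 4 moved them to 1.21, -0.27 and -0.37. Tsc22d3, which encodes the anti-inflammatory protein GILZ, had a log2 fold change of 0.84, as did Klf9, and the clock gene Per1, the kinase gene Sgk1 and the NF-κB inhibitor gene Nfkbia had 0.34, 0.41 and 0.27 (named here after their values were seen). The metallothionein genes Mt1 and Mt2 had -0.75 and -0.57, and -0.33 and -0.021 without sgRosa replicate 4, likewise named after their values were seen. Without sgRosa replicate 4 the list split into 11 higher and 7 lower with a median of 0.034, and Sgk1 had 0.0054. DESeq2 without that library called Zbtb16 and Cdkn1a, beside 1.82% of all genes called higher.

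Genes whose levels followed Fkbp5 most closely were sought among 9821 others with a mean of at least 5 CPM, by the Pearson correlation of log2 CPM over the 7 libraries, which share group and makeup. The highest were Eif3b, a translation initiation factor subunit (r = 0.98), the Hsp40 co-chaperone gene Dnaja4 (0.97), the kinase gene Mast4 (0.97), Map7d1 (0.96) and Mgea5, which encodes O-GlcNAcase (0.96). Dnaja4 lay at 11.1, 14.7, 18.3 and 8.59 CPM in the 4 control libraries and at 30.6, 45.1 and 29.4 CPM in the 3 sgNr2f2 libraries. These genes keep both the low sgRosa pair and the high sgNr2f2 group, with smaller differences than Fkbp5 (log2 fold changes from 0.64 for Mast4 to 1.54 for Map7d1). After the group means were subtracted, the closest were Col18a1 (r = 0.97), Prodh (0.96), Alkbh6 (0.94), Ppa1 (0.94) and Usmg5 (0.93). These 5 genes, picked as the highest of 9821, shared with Fkbp5 the low sgRosa pair and the highest sgNr2f2 level in replicate 2. Of them only Col18a1 was higher in sgRosa replicate 2 than in replicate 3, as Fkbp5 was. Their own log2 fold changes ran from -0.84 for Usmg5 to 0.88 for Col18a1.

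Among the genes closest to Nr3c1 over the same 7 libraries were Tmem51 (r = 0.99) and the secretory pathway genes Srprb (0.99), Kdelr1 (0.99) and Sec11a (0.99). Each was highest in sgRosa replicate 4, as Nr3c1 was, with Tmem51 at 37.3 CPM there against 10.2 to 19.6 CPM in the other 6 libraries.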

How the data were processed

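RNA-seq was made from 7 libraries, 4 sgRosa and 3 sgNr2f2. The deposited values are raw counts, whole numbers for each gene symbol with no normalization, and the 7 single-library files equal the series table. The submitters' processing notes name fastp 0.23.2, STAR 2.7.5c, featureCounts 2.0.1 and edgeR 3.42.4 with build mm10. Annotation, strand setting and multi-mapped reads were not given in the sources used here. RefSeq (GRCm38.p6) matched 90.3% of symbols.

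From the counts, edgeR 4.0.16 (R 4.3.3) fitted the group alone with TMM factors and its low-count filter on 14412 genes, with the quasi-likelihood F test and Benjamini-Hochberg adjustment at 0.05. The SE and the 95% interval were derived from that fit and are not edgeR outputs. The SE was the absolute log2 fold change over the square root of F, and the interval used a t quantile. The fit was tested on simulated data. Alternatives used DESeq2 1.42.0, limma-voom (limma 3.58.1), other scalings and filters, a covariate, and left-out libraries. The ratio of Nr3c1 to Nr3c2 and the library measures were compared by exact permutation tests, and the ratio of Fkbp5 to Fkbp4 had no test. Total counts ran from 6266897 to 20928677, and precision is counting error plus library spread.

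Members and lists were chosen with earlier results of these data known. Named genes are the members, Nr2f2, the 3 genes of smallest p in each list (or all past the threshold), and the 5 closest in pattern. Some genes that this rule selects are not reported here.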

Additional observations from a re-analysis of the deposited data

Results flagged for a closer look

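In 23 groups of 4 sgRosa values examined, 8 had 1 library far from the other 3 by Dixon's test, where chance gives about 1 in 20. sgRosa replicate 4 was the distant library for Fkbp4, at 142.5 CPM against 81.8 to 88.7 CPM, and for Stub1, at 194.1 CPM against 23.6 to 26.8 CPM. It was also distant in the log2 ratio of Nr3c1 to Nr3c2, 7.09 against 3.68 to 3.82, in the share of counts in receptor chaperones, 0.811% against 0.2295 to 0.292%, and in erythroid genes, 3.70% against 0.0980 to 0.318%. sgRosa replicate 2 was distant in choroid plexus markers, 0.0861% against 0.000513 to 0.00779%, and in fibroblast markers, 0.00362% against 0.000782 to 0.00115%. sgRosa replicate 1 was distant in early response genes, 1.58% against 0.202 to 0.396%. The part of these shares in the levels of the receptor machinery was not tested.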

How the results depend on the processing

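The fit was repeated under 20 alternatives. Nr3c1 stayed lower and Fkbp5, Fkbp4 and Ptges3 higher in all 20. In DESeq2 the log2 fold change of Fkbp5 was 3.14, and 2.90 without sgRosa replicate 4, given as a description because the gene was chosen on these values. DESeq2 called 2 genes higher and 5 lower in all. Without sgRosa replicate 4 it called 256 genes higher and 116 lower, among them 2 coregulators and 2 corticosteroid-induced genes. The other 18 alternatives, all in edgeR or limma-voom, called 0 genes. The direction of 3 genes was not stable, and for Nr3c2 and Hsd11b1 the cause was not tested. For Nr3c2 the log2 fold change was -0.042 with upper-quartile factors, -0.11 with library size alone, -0.53 with quality weights, -0.18 with the oligodendrocyte covariate, and -0.26 (DESeq2) and -0.40 (limma-voom) without sgRosa replicate 4. For Hsd11b1 it was -0.062 with upper-quartile factors, -0.28 with library size alone, -0.00093 in DESeq2, -0.32 in limma-voom, -0.028 with no low-count filter, -0.25 with the covariate, and -0.079 (DESeq2) and -0.38 (limma-voom) without sgRosa replicate 4. For Stub1 it was positive in 5 alternatives, each of which left out sgRosa replicate 4 or largely set it apart. It was 0.13 with the covariate, and 0.16 (DESeq2) and 0.13 (limma-voom) without sgRosa replicate 4. Leaving out 1 library at a time gave -0.46 to 0.30 for Nr3c2, -0.39 to 0.45 for Hsd11b1, -1.57 to 0.13 for Stub1 and -0.83 to 0.31 for the log2 ratio of Nr3c1 to Nr3c2, whose sign changed without sgRosa replicate 4. The median of all genes was -0.19 with upper-quartile factors and -0.33 with library size alone, against -0.11.

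With the replicate number as a block (replicate block), the log2 fold changes were 3.01 for Fkbp5, 0.48 for Fkbp4, 0.58 for Ptges3, -0.094 for Nr3c1, -0.40 for Nr3c2, -0.34 for Hsd11b1 and 0.13 for Stub1, and 0 genes were called. Only sgRosa has a replicate 4, so that library formed a block alone and these differences came from replicates 1 to 3. Libraries that share a number did not deviate together (correlations of -0.20, -0.26 and 0.090), and none of the 3 sgNr2f2 libraries correlated best with its own number. Depth limits the values of Hsd11b1 and Nr3c2, each with 8 counts in its lowest library.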
